A study of Mus musculus with 4 samples.

Results

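T-box transcription factors are DNA-binding proteins of development that share one domain, the T-box. The 10 genes described here are Tbx1, Tbx2, Tbx3, Tbx4, Tbx5, Tbx6, Tbx15, Tbx18, Tbx20 and Eomes, out of 19938 genes measured. They were taken by symbol from the probe sets that the platform annotation gives exactly 1 symbol, and each of the 10 had 1 probe set. The cells were E14 mouse embryonic stem cells of strain inbred 129, transduced with lentiviral vectors at 10 MOI, selected with puromycin (2 µg/ml, from 48 h after transduction) and grown in 15% serum with leukemia inhibitory factor (1000 units/ml). One group carried a knockdown of Kdm2b and the other was the control, with 2 arrays of each (Affymetrix MoGene 1.0 ST). Both groups went through the same protocol in the labels, which give neither the knockdown sequence, the control vector's insert nor the time of harvest. The labels do not say whether replicates were separate cultures, so the p-values cover just the spread among these arrays, which may be technical.

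T-box proteins bind a short DNA element and, depending on the member and its partners, activate or repress transcription. Most members are known for roles in particular parts of the embryo, such as the primitive streak, the heart, the limb buds or the presomitic mesoderm, while Tbx3 is known to be active in mouse embryonic stem cells. Kdm2b, the gene knocked down, encodes a protein that binds unmethylated CpG-rich DNA and brings a variant Polycomb repressive complex to it, and the series addresses whether this holds lineage genes in the stem cell state.

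The 4 arrays had median log2 values of 8.49 to 8.55, and knockdown replicates correlated at r = 0.9966 and control replicates at r = 0.9963 across probe sets. Kdm2b read 9.20 and 9.19 on the knockdown arrays and 10.74 and 10.64 on the control arrays. Markers of the labelled cell type were present: all 10 stem cell markers measured had mean log2 values of at least 11.6. After knockdown 0 of them were higher and 0 lower (limma, adjusted p under 0.05, the rule for every call below). Over all 19938 genes 5.00% were called higher and 7.19% lower, and 5941 had an unadjusted p under 0.05. With so few markers the count is near those shares. The differences of the 10, knockdown minus control, ran from -0.165 to 0.30.

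Promoter sequences are shown because Kdm2b is known to bind CpG-rich DNA; its binding at these promoters was not measured here. RefSeq's promoter table (GRCm38.p6, from 250 bases before to 50 after a gene's start) held windows for 6 of the 10 genes. The 4 windows below belong to Tbx20 and Eomes, which rose after knockdown, to Tbx1, which holds as many CpG dinucleotides as Tbx20 and did not pass the test, and to Tbx6, whose window holds the fewest. They are written 5′ to 3′ on the gene's strand, with each CpG in capitals.
Tbx20 promoter, chr9:24774254-24774553, minus strand: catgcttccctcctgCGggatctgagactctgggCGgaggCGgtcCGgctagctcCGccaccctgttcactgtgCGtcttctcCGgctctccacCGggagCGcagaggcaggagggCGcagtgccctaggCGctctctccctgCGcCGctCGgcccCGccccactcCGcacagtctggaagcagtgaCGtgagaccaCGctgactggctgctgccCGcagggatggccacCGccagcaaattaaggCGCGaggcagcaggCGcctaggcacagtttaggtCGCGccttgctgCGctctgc
Tbx1 promoter, chr16:18588850-18589149, minus strand: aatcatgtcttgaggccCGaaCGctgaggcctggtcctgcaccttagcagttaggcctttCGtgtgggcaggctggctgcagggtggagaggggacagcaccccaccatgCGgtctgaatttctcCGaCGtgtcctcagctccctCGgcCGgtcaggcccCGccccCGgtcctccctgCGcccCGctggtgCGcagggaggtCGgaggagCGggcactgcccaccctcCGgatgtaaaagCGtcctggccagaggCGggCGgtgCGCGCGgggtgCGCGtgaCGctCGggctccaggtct
Eomes promoter, chr9:118477939-118478238, plus strand: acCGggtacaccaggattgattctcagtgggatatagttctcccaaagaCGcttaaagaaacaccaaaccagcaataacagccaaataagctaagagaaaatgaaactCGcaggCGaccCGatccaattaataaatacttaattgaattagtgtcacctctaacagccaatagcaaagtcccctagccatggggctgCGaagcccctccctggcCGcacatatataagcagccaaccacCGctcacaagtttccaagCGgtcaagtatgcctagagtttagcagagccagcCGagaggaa
Tbx6 promoter, chr7:126781233-126781532, plus strand: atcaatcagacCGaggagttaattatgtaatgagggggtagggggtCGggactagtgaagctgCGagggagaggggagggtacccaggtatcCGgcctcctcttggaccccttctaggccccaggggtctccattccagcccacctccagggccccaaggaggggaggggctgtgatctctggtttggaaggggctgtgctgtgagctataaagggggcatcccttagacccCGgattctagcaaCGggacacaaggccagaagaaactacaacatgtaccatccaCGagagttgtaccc

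The Tbx20 window and the Tbx1 window shown each held 26 CpG dinucleotides, a count that 16.9% of all 32851 windows reach or pass. A second Tbx1 start had 16, Tbx18 had 15, Eomes 10, Tbx4 8 and Tbx6 7, and the median over all windows was 7. The window's GC content was 68.3% in Tbx20 and 69% in Tbx1, against 47.3% in Eomes and a median of 52.7% over all windows. The T-box element AGGTGTGA, searched with its reverse complement TCACACCT, was in 0 of the 7 windows of these genes and in 1.28% of all windows.

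**Figure D1:**
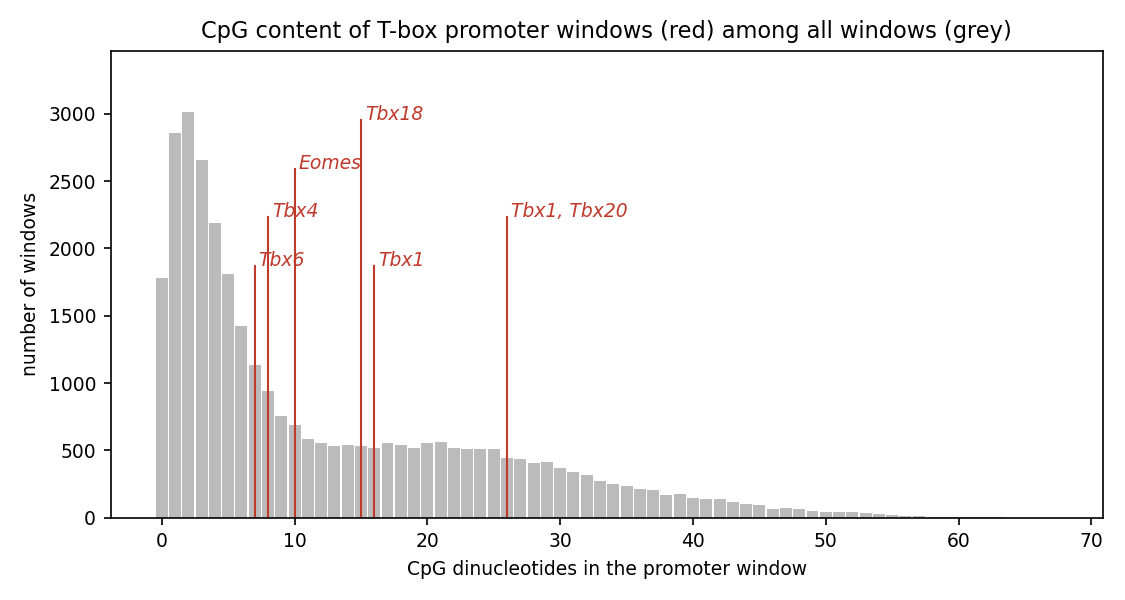
Number of promoter windows of 300 bases (vertical axis) by their count of CpG dinucleotides (horizontal axis) for all 32851 windows in grey, with the 7 windows of T-box genes as red lines. Tbx20 and one window of Tbx1 stand at 26, and Tbx6 stands at the median of 7.

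After Kdm2b knockdown 3 of the 10 T-box genes were higher, 0 were lower and 7 passed in neither direction. Over all genes 5.00% were called higher and 7.19% lower, together 12.2%. With every probe set of the table in the fit, limma called 0 of 35557 in either direction (7742 at an unadjusted p under 0.05), and the adjusted p of the 3 T-box genes was 0.0679 to 0.0726. Tbx20, Tbx15 and Eomes were the 3 that rose, with measured levels 1.89 to 2.49 times those of control cells. Control readings were low for Tbx20 and Tbx15 and not much higher for Eomes, so these folds may be lower bounds. A rise of at least 1.5-fold past the threshold was seen for these 3 genes and for 1.20% of all genes. The median log2 difference, knockdown minus control, was 0.125 over the 10 genes and 0.03 over all genes. The sign was positive for 9 of the 10 and for 56.9% of all genes. That of Tbx5 turned negative when the arrays were quantile-normalized or centred on their medians. The array medians were 8.55 and 8.53 for knockdown and 8.49 and 8.51 for control. After centring on them the differences of Tbx2, Tbx3 and Tbx4 were 0.005, 0.005 and 0.015, so several of the positive signs rest on small offsets. Without control replicate 2 the differences of Tbx3 (-0.055), Tbx4 (-0.015) and Tbx5 (-0.025) were negative. Since the 10 genes were chosen with results of these arrays known, these shares are a description.

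**Figure D2:**
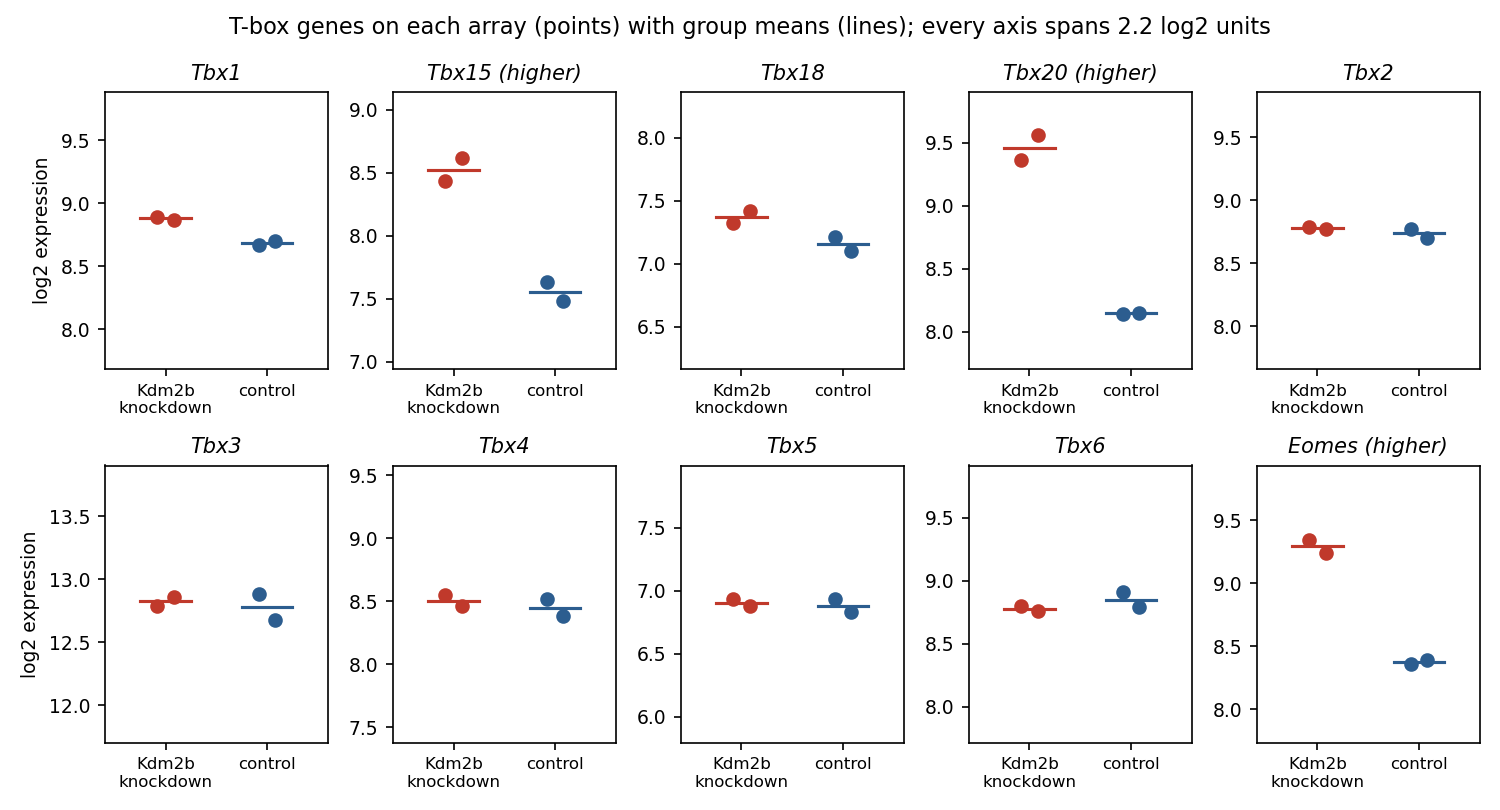
Log2 expression (vertical axis) of each T-box gene on the 2 knockdown arrays (red) and the 2 control arrays (blue); points are arrays, lines are group means, and every panel spans 2.2 log2 units. Both knockdown arrays lie far above both control arrays for Tbx20, Tbx15 and Eomes, and the arrays overlap for Tbx2, Tbx3, Tbx4, Tbx5 and Tbx6.

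Among the 10 genes the Tbx1 subfamily comprises Tbx1, Tbx15, Tbx18 and Tbx20, and it held 2 of the 3 genes that rose. Tbx22, a further gene of this subfamily outside the 10, had a difference of -0.055 and did not pass. Tbx20, a regulator of heart chamber and valve formation, had log2 values of 9.36 and 9.56 on the knockdown arrays, against 8.14 and 8.15 on the control arrays. The groups were separated by 1.21 log2 units between their nearest arrays, while the knockdown replicates differed by 0.20 and the control replicates by 0.01. Tbx20 averaged 9.46 ± 0.14 in knockdown cells and 8.145 ± 0.0071 in control cells (SD, n = 2 each), a difference of 1.315 (SE 0.083, 95% interval 1.11 to 1.52, adjusted p = 0.0049, limma). The control mean lay inside the range of the olfactory receptor genes given further on, so this difference may be a lower bound.

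Tbx15, a gene of limb, skull and muscle development, read 8.43 and 8.62 in knockdown cells and 7.63 and 7.48 in control cells. The nearest arrays of the groups lay 0.80 apart, while the knockdown replicates differed by 0.19 and the control replicates by 0.15. The means were 8.525 ± 0.13 in knockdown cells and 7.555 ± 0.11 in control cells (SD, n = 2 each), which is a rise of 0.97 (SE 0.092, 95% interval 0.74 to 1.20, adjusted p = 0.0065, limma). Its control mean also lay inside the range of the olfactory receptor genes, so the rise may be a lower bound.

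Tbx1 and Tbx18 had smaller differences of the same sign that did not pass the threshold. Tbx1, a gene of the pharyngeal arches and outflow tract, read 8.89 and 8.87 in knockdown cells and 8.67 and 8.70 in control cells. Its difference was 0.195 (SE 0.06, 95% interval 0.05 to 0.34, adjusted p = 0.0923, limma). Tbx18, known from the epicardium and the sinus node, read 7.32 and 7.42 in knockdown cells and 7.21 and 7.10 in control cells, a difference of 0.215 (SE 0.073, adjusted p = 0.116, limma). For both genes every knockdown array lay above every control array, by at least 0.17 for Tbx1 and 0.11 for Tbx18. In all, 5 of the 10 T-box genes had groups that did not overlap, the knockdown arrays being the higher in each case, where 58.8% of all genes did not overlap in either direction and 33.8% did not with knockdown higher.

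Eomes, of the Tbr1 subfamily, directs mesendoderm in the primitive streak and is also a regulator of the trophoblast. Its log2 values were 9.34 and 9.24 on the knockdown arrays and 8.36 and 8.39 on the control arrays. All replicate differences were at most 0.10, and the nearest arrays of the groups lay 0.85 apart. Eomes averaged 9.29 ± 0.071 in knockdown cells and 8.375 ± 0.021 in control cells (SD, n = 2 each), a rise of 0.915 (SE 0.067, 95% interval 0.75 to 1.08, adjusted p = 0.0054, limma). Its control mean lay only just above the range of the olfactory receptor genes, so this rise may also be a lower bound.

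The calls of Tbx20, Tbx15 and Eomes rest on all 4 arrays. With any 1 array left out the adjusted p of each lay between 0.196 and 0.258 (limma), and 0 genes of the array were called in either direction. The log2 differences then ran from 1.215 to 1.415 for Tbx20, from 0.875 to 1.065 for Tbx15 and from 0.865 to 0.965 for Eomes. From RNA of whole cultures, more cells that express these genes and more RNA per cell cannot be told apart.

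The Tbx2 subfamily moved little. Tbx3, a member of the network that sustains self-renewal in mouse stem cells, read 12.79 and 12.86 in knockdown cells and 12.88 and 12.68 in control cells, a difference of 0.045 (95% interval -0.17 to 0.26, adjusted p = 0.765, limma). Its control replicates differed by 0.20, more than the group means did. Tbx2, a repressor in the non-chamber myocardium, read 8.79 and 8.77 in knockdown cells and 8.77 and 8.70 in control cells, a difference of 0.045 (95% interval -0.11 to 0.20). For both genes the arrays of the groups overlapped.

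Tbx4, which acts in the hindlimb and lung, read 8.55 and 8.46 in knockdown cells and 8.52 and 8.38 in control cells, a difference of 0.055 (95% interval -0.13 to 0.24). Tbx5, a regulator of the forelimb and heart, read 6.93 and 6.88 in knockdown cells and 6.93 and 6.83 in control cells, a difference of 0.025 (95% interval -0.14 to 0.19). Neither passed the threshold (adjusted p = 0.674 for Tbx4 and 0.838 for Tbx5, limma), and their groups overlapped. Changes as large as that of Tbx15 or Eomes lie outside the intervals of Tbx2, Tbx3 and Tbx4. For Tbx5, whose readings were low in both groups, the interval sets no such limit. For Tbx4, which read only just above the range of the olfactory receptor genes, it may not set one either.

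Tbx6, which specifies presomitic mesoderm over neural fate, was the 1 gene of the 10 with a negative difference. It read 8.80 and 8.76 in knockdown cells and 8.91 and 8.79 in control cells, a difference of -0.07 (95% interval -0.24 to 0.10, adjusted p = 0.548, limma). The groups overlapped.

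**Figure D3:**
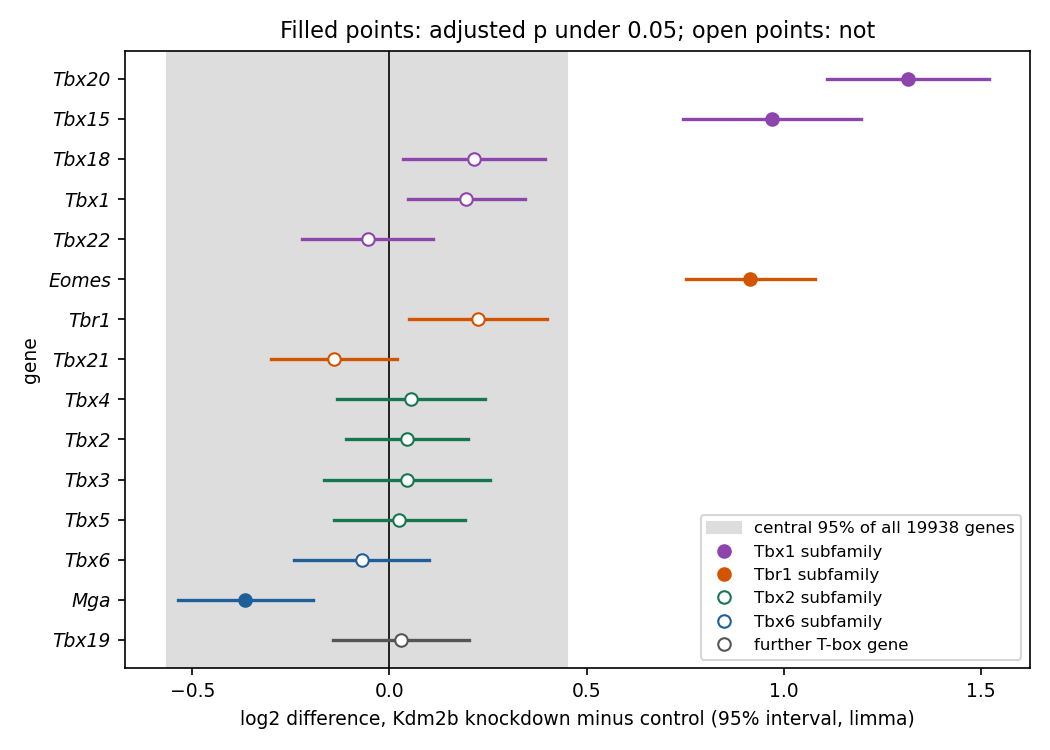
Log2 difference, knockdown minus control, with its 95% interval from limma (horizontal axis) for the 10 T-box genes and 5 further genes of the family, coloured by subfamily; filled points have an adjusted p under 0.05 and the grey band holds the central 95% of all genes, from -0.565 to 0.45. Tbx20, Tbx15 and Eomes lie right of the band, and Mga is the filled point to the left of 0.

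Of 6 further genes with a T-box domain, 5 were measured, and Tbx10 is not analysed here. The T-box gene T (Brachyury) was in neither list and is also not analysed here. Among the 5, 0 were higher, 1 was lower and 4 were neither, where 5.00% of all genes were higher and 7.19% lower. The median difference of the 5 was -0.055. Mga, a large T-box protein that dimerizes with Max and belongs to another variant Polycomb complex, read 12.24 and 12.13 in knockdown cells and 12.58 and 12.52 in control cells. It fell by 0.365 (SE 0.07, adjusted p = 0.0281, limma). The other 4 genes were named after their values were seen. Tbr1, a close relative of Eomes and a factor of cortical neurons, had a difference of 0.225 (adjusted p = 0.0974, limma), and Tbx21, the regulator of T helper 1 cells, one of -0.14. The relatives Tbx22, a palate gene of the Tbx1 subfamily, and Tbx19, a pituitary gene, had differences of -0.055 and 0.03.

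The level at which a silent gene reads on this array bears on the low values. As a yardstick chosen after the values were seen, the 1027 olfactory receptor genes, which stem cells are not known to use, had mean log2 values whose central 95% ran from 4.06 to 8.19, although probe sets differ in how they respond. The mean of Tbx20 was above that range in knockdown cells (9.46) and inside it in control cells (8.145). Tbx15 was likewise above it in knockdown cells (8.525) and inside it in control cells (7.555), while Eomes was above it in both groups. Tbx5 and Tbx18 were inside it in both groups, so a difference in them may not have been measurable, and Tbx1, Tbx2, Tbx3, Tbx4 and Tbx6 were above it in both. The edge of the range is not a sharp limit. In control cells Eomes (8.375) and Tbx4 (8.45) stood at the 98.1 and 98.2 percentiles of these receptor genes, near Tbx20 at 97.3. Of the 1027 olfactory receptor genes 8 were called higher and 0 lower, where 5.00% of all genes were higher and 7.19% lower.

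The genes with the pattern most like that of Tbx20 over the 4 arrays were Phlda1, Esam and Epas1, at Euclidean distances of 0.116, 0.15 and 0.16 log2 units after each gene's mean was subtracted. Phlda1 rose by 1.425, Esam by 1.205 and Epas1 by 1.425. Those most like Eomes were Dapk1, Dcbld1 and Mcam, at distances of 0.0572, 0.064 and 0.0669. These 3 rose by 0.89, 0.855 and 0.90. With 4 arrays in 2 groups, likeness mostly reflects a difference of the same size.

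Neighbouring genes were read to see whether the changes extended along the chromosome. In the RefSeq gene order, Tbx2 lies beside Tbx4 on chromosome 11 and Tbx3 beside Tbx5 on chromosome 5, and none of these 4 genes passed the threshold. Outside the family, the 10 genes had 16 nearest measured protein-coding neighbours. Of these, 2 were higher, 2 lower and 12 neither (over all genes 5.00% higher and 7.19% lower), with a median difference of -0.0075. The neighbours of Tbx20 were Dpy19l2, with a difference of -0.035, and Herpud2, with -0.075. Those of Tbx15 were Wars2 (-0.04) and Spag17 (0.16), and those of Eomes were Cmc1 (0.21) and Golga4 (-0.14). None of these 6 passed the threshold, with adjusted p-values of 0.14 to 0.821 (limma).

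The largest change among the neighbours lay beside Tbx18, which itself did not pass. Nt5e, which encodes the ectoenzyme CD73, read 8.88 and 9.26 in knockdown cells, against 8.10 and 8.10 in control cells, and rose by 0.97 (SE 0.13, adjusted p = 0.0118, limma). Cep162, a centriole gene on the other side of Tbx18, fell by 0.425 (adjusted p = 0.0275, limma). Beside Tbx1, Gnb1l rose by 0.28 (adjusted p = 0.0499, limma) and Cldn5 had a difference of 0.145. Beside Tbx6, Ypel3 fell by 0.305 (adjusted p = 0.0341, limma) and Ppp4c had a difference of 0.05. Next to the Tbx3 and Tbx5 pair, Med13l had a difference of -0.16 and Rbm19 of 0.295, and next to the Tbx2 and Tbx4 pair Bcas3 had one of -0.08 and Brip1 of 0.02; none of these 4 passed.

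Signals that induce T-box genes in the embryo were examined as a list of 11 genes. Of these 1 was higher, 1 lower and 9 neither, where 5.00% of all genes were higher and 7.19% lower. The median difference of the 11 was 0.09. Bmp4, which induces mesoderm and cardiac T-box genes, read 12.77 and 12.88 in knockdown cells and 12.16 and 12.27 in control cells, and it rose by 0.61 (SE 0.075, adjusted p = 0.0104, limma). Bmp7 read 9.57 and 9.36 in knockdown cells and 9.83 and 9.86 in control cells, and it fell by 0.38 (SE 0.086, adjusted p = 0.0427, limma). Bmp4 and Bmp7 thus changed in opposite directions. Bmp2 and Nodal, chosen after their values were seen, had differences of 0.31 and 0.32. Neither passed (adjusted p = 0.0654 for Bmp2 and 0.132 for Nodal, limma). In all, 8 of the 11 differences were positive, as were 56.9% of those of all genes. Fgf10, a limb and lung signal chosen after its values were seen, read 8.38 and 9.08 in knockdown cells and 8.25 and 8.13 in control cells. Its difference of 0.54 did not pass (adjusted p = 0.161, limma), and its knockdown replicates lay 0.70 apart.

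Of 15 cofactors and antagonists of T-box proteins in mesoderm and heart, 3 were higher, 0 lower and 12 neither, with a median of 0.18. The shares over all genes were 5.00% higher and 7.19% lower. Gata6, a partner in cardiac and endoderm gene regulation, read 11.74 and 12.60 in knockdown cells and 10.07 and 10.04 in control cells, a rise of 2.115. Mef2c, a muscle and heart factor, rose by 0.355 (adjusted p = 0.025, limma), and Tle4, a Groucho co-repressor, by 0.325 (adjusted p = 0.0385, limma). Ripply3, an antagonist of Tbx1 chosen after its values were seen, read 10.01 and 10.54 in knockdown cells and 9.71 and 9.30 in control cells. Its difference of 0.77 did not pass (adjusted p = 0.0646, limma). Ripply1 and Ripply2 of the same list, also chosen after their values were seen, had differences of -0.335 and 0.18. Neither passed (adjusted p = 0.153 and 0.122, limma). Other cardiac partners, likewise chosen after their values were seen, did not pass the threshold. Gata4 read 9.48 and 9.90 in knockdown cells and 9.35 and 9.02 in control cells, a difference of 0.505 (adjusted p = 0.107, limma), and Nkx2-5, Hand1, Hand2, Isl1 and Gata5 had differences between -0.065 and 0.165.

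Genes described in the literature as targets of T-box factors showed 1 higher, 0 lower and 15 neither among the 16 analysed. Their median was 0.0425, and 5.00% of all genes were higher and 7.19% lower. The 1 that rose was Cdkn2a, a cell cycle inhibitor locus known to be repressed by Tbx2 and Tbx3, which read 9.24 and 9.29 in knockdown cells and 8.80 and 8.77 in control cells. Its difference was 0.48 (SE 0.062, adjusted p = 0.0116, limma). Dll1, a Notch ligand downstream of Tbx6 chosen after its values were seen, read 9.14 and 8.39 in knockdown cells and 9.40 and 9.73 in control cells. Its difference of -0.80 did not pass (adjusted p = 0.0913, limma), and its knockdown replicates lay 0.75 apart. Genes of the streak and mesendoderm on this list, also chosen after their values were seen, had differences of 0.20 for Foxa2, 0.11 for Gsc, 0.065 for Mesp1, 0.015 for Lhx1 and -0.055 for Mixl1, none past the threshold. For Foxa2 and Gsc both knockdown arrays lay above both control arrays, as they did for 33.8% of all genes. Msgn1 (0.075), Cer1 (0.03) and Mesp2 (-0.03) of the list, likewise chosen after their values were seen, did not pass either. Both knockdown arrays lay above both control arrays for Msgn1 and below them for Mesp2.

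**Figure D4:**
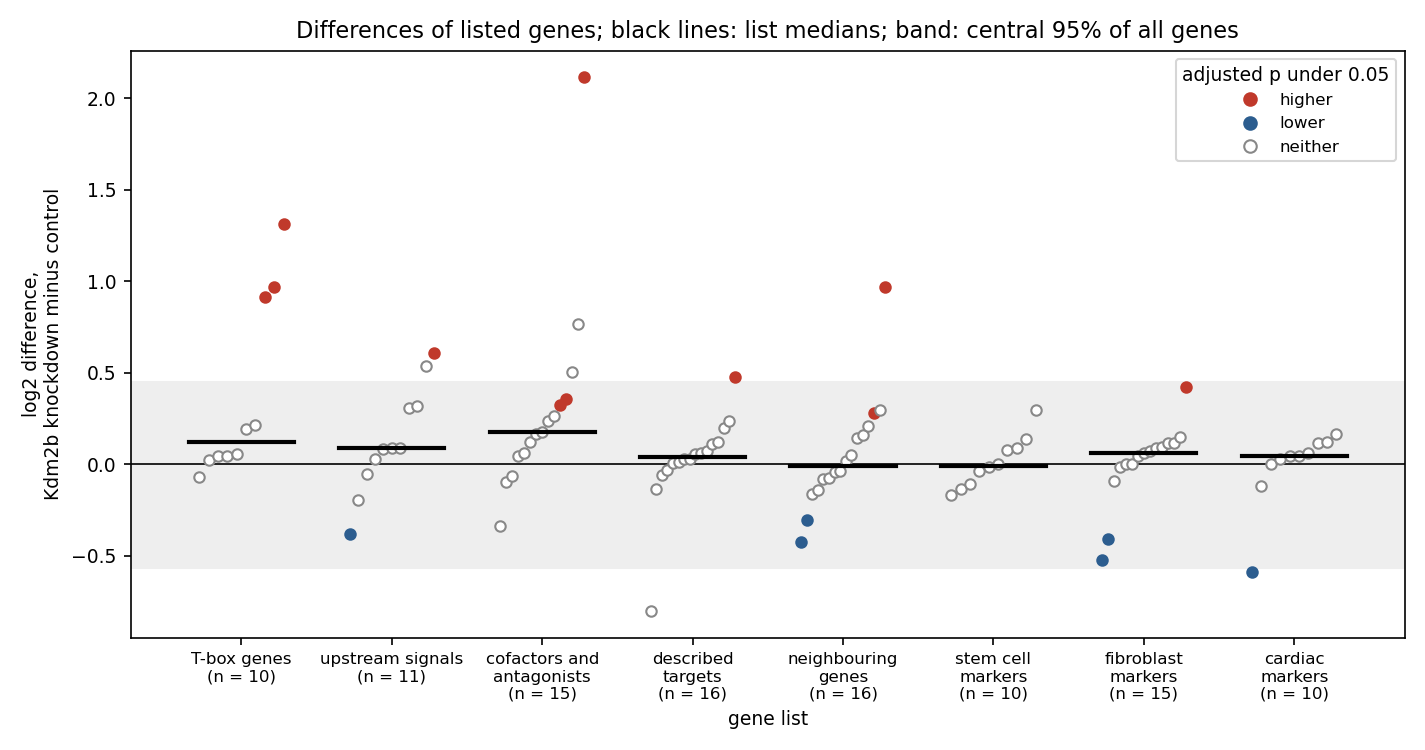
Log2 difference, knockdown minus control (vertical axis), of each gene in the lists named on the horizontal axis; red points were called higher, blue points lower and open points neither, black lines are list medians and the band holds the central 95% of all genes. The 3 T-box genes called higher stand above the band, and the cofactor at 2.115 is Gata6.

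Markers of other cell types that use T-box genes were read beside these results. Over all genes, for comparison, 5.00% were called higher and 7.19% lower. Of 15 fibroblast and feeder markers measured, 1 was higher, 2 lower and 12 neither, and their mean log2 value was 8.42 to 8.44 on the knockdown arrays and 8.41 to 8.42 on the control arrays. Twist1 rose by 0.425, Pdgfrb fell by 0.52 and Acta2 fell by 0.41. Of 10 cardiac muscle markers, 0 were higher, 1 lower and 9 neither, and their mean was 9.02 to 9.04 on the knockdown arrays and 9.02 to 9.05 on the control arrays. Myl7, an atrial myosin light chain, fell by 0.585 (adjusted p = 0.0123, limma). Their part in the T-box results was not tested.

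**Figure D5:**
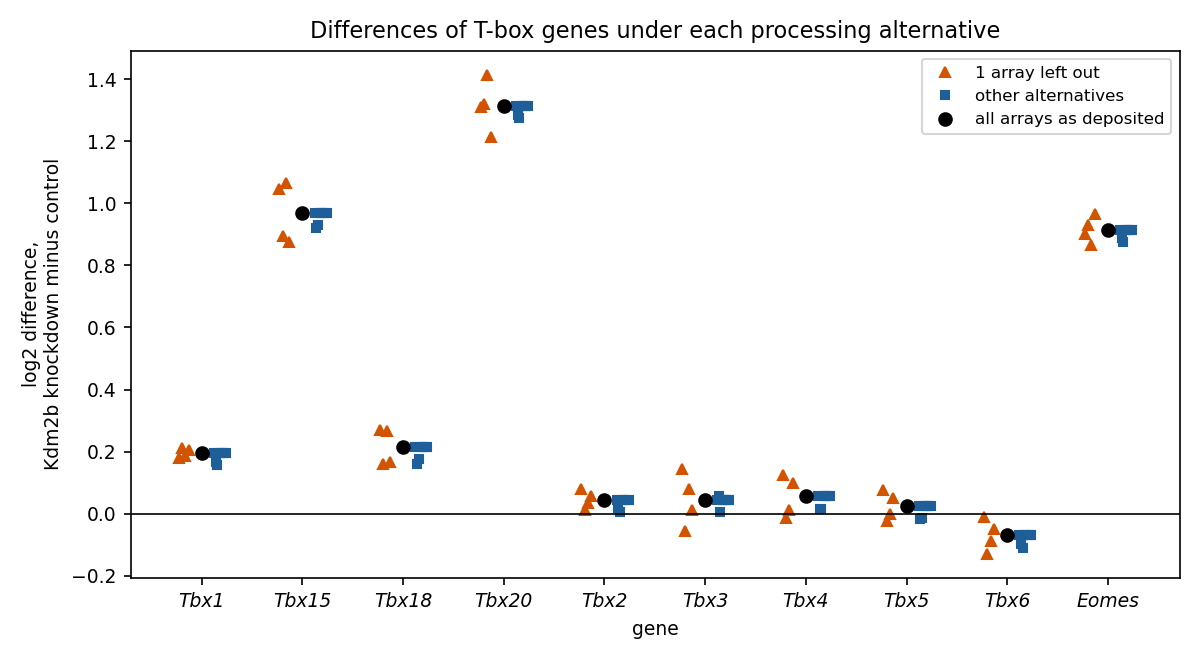
Log2 difference, knockdown minus control (vertical axis), of each T-box gene (horizontal axis) with all arrays as deposited (black), with 1 array left out (orange) and under the other processing alternatives (blue). Tbx20, Tbx15 and Eomes stay at or above 0.865 throughout, and Tbx3, Tbx4 and Tbx5 cross 0.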

How the data were processed

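The deposited table holds log2 expression for 35557 probe sets on 4 arrays, deposited by the authors; the submitters' processing notes name Affymetrix Expression Console, with its version, background step and summary not stated in the sources used here. The values (3.12 to 14.74) show that they are on a log2 scale. How the authors scaled arrays to each other is unknown; the values are not centred per gene. Of the probe sets, 21789 had 1 gene symbol, 1621 several and 12147 none in the platform annotation. The probe set with the highest mean was kept per gene, giving 19938 genes. Groups and replicate numbers came from the titles.

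The comparison of knockdown with control used limma 3.58.1 under R 4.3.3 (lmFit and eBayes, group as the only term, prior of 3.9 degrees of freedom, two-sided, Benjamini-Hochberg over all 19938 genes, adjusted p under 0.05), a procedure also tested on simulated data. The 95% intervals are limma's and are not adjusted for the number of genes. The number of arrays limits the precision. Named genes are the 10 members, Kdm2b, their neighbours, up to 4 called genes of each list or 2 where none was called, and 3 genes most alike to each of the 2 members with the smallest p; others are marked. The members, lists and tests were chosen with earlier results of these data known. Promoter sequences and gene order are from RefSeq (GRCm38.p6). Alternatives tried were a block for the replicate number, omission of each array, quantile normalization, median centring, removal of dim genes (mean at or under 9 on the log2 scale), averaging the probe sets of a gene, every probe set in the fit, an intensity trend or robust prior, and an adjusted p under 0.1.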

Additional observations from a re-analysis of the deposited data

How the results depend on the processing

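Of 121 values of the 10 T-box genes under alternatives, 97 kept their side of the threshold and did not turn to the opposite sign. Among them, the difference of Tbx5 without knockdown replicate 1 was 0. Most of the 97 belong to genes that were not called in the first place. Of the others 18 lost the call, all of them values of Tbx20, Tbx15 or Eomes, 5 changed sign and 1 gained a call. Under quantile normalization, median centring, averaged probe sets per gene, an intensity-dependent prior and a robust prior, Tbx20, Tbx15 and Eomes remained the genes called higher. Each of the 10 genes had 1 probe set, so averaging could not change their values, only the prior and the adjustment over genes. With the replicate number as a block limma called 0 genes higher and 0 lower (5411 at an unadjusted p under 0.05) and 0 T-box genes, with adjusted p = 0.127 for Tbx20 (1.315), Tbx15 (0.97) and Eomes (0.915). The labels do not say that a number marks a shared culture or day, and deviations of same-numbered arrays from their group means correlated at 0.0954 across genes. With every probe set of the table in the fit limma called 0 of 35557 in either direction (7742 at an unadjusted p under 0.05), with adjusted p = 0.0679 for Tbx20 (1.315) and Eomes (0.915) and 0.0726 for Tbx15 (0.97). When 1 array was omitted, limma called 0 genes and 0 T-box genes (unadjusted p under 0.05 for 3495 to 4215 genes), and the differences ran from 1.215 to 1.415 (Tbx20), 0.875 to 1.065 (Tbx15) and 0.865 to 0.965 (Eomes). At an adjusted p under 0.1, 1920 genes were higher and 2236 lower, and Tbx1 (0.195) joined the 3 T-box genes. The filter on dim genes left only Tbx3 of the 10, so 0 were called. Without control replicate 2 the differences of Tbx3 (-0.055, range over the arrays left out -0.055 to 0.145), Tbx4 (-0.015, range -0.015 to 0.125) and Tbx5 (-0.025, range -0.025 to 0.075) were negative, and that of Tbx5 was -0.016 after quantile normalization and -0.015 after median centring. The causes were not tested. No group had enough arrays for a check of single outlying arrays.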
